A study of Mus musculus with 2 samples.

Results

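C-type lectins, Siglecs and Fc receptors are the surface proteins through which leukocytes read sugars, sialic acid and antibody. Their genes were taken from the kidney RNA-seq table as every row whose symbol starts with Clec, Siglec, Fcgr or Fcer, which gave 30 genes of the 20002 listed. The Clec family held 20 of them, the Siglec family 4, the Fcgr family 5 and the Fcer family 1. The genes were compared by family between Reg-2 CKO mice and control mice.

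Most of these receptors signal through shared modules. Activating members carry, or borrow from the adaptors FcRγ and DAP12, an ITAM, a tyrosine motif that recruits the kinase Syk when phosphorylated. Inhibitory members carry an ITIM, which recruits the phosphatases SHP-1, SHP-2 and SHIP-1 and dampens the same cells. In kidney, resident macrophages and dendritic cells are the usual carriers of Fcγ receptors and Dectin-type lectins, whereas the neonatal Fc receptor Fcgrt belongs to the epithelium and podocytes, where it recycles albumin and IgG. Several Clec genes are not immune receptors at all and encode endothelial, secreted or endosomal proteins.

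Bulk RNA-seq was made from left kidney tissue of C57BL/6J mice, with 1 library labelled Control and 1 labelled CKO. The labels describe the CKO as a conditional knockout of Reg-2 (Regnase-2, gene Zc3h12b, an RNase that degrades inflammatory transcripts) restricted to the proximal tubule. The study's methods describe AAV9 carrying shRNA against Regnase-2, injected into the tail vein at 11 weeks of age, and a control AAV9 that is named as empty vector in one place and as control shRNA in another. Age at collection is given as 14 weeks for RNA-seq and as 16 weeks in the virus protocol. In the study's account the virus favours the proximal tubule, judged by staining. Neither group had another treatment, and whether a library held 1 mouse or a pool is not given in the sources used here.

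The targeted gene did not separate the libraries. Zc3h12b counts were 47 for control and 59 for CKO, which after scaling is a log2 ratio of −0.25 (95% counting interval −0.83 to 0.33). The values as deposited were 81 and 109, higher for CKO, so the sign of this ratio depends on the scaling. The labels could not be checked from it, so directions below are those of the library labelled CKO. Kidney markers were abundant in both libraries. Slc34a1, the main phosphate transporter of the proximal tubule, had 147064 and 98124 counts, and Umod, the uromodulin gene of the thick ascending limb, had 90047 and 187056. The podocyte gene Nphs1 had 481 and 630.

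The values are the authors' normalized counts, rounded to whole numbers, and no gene was listed below 35 in the control column or below 51 in the CKO column. A floor of 34 and 50 was therefore subtracted, and what remained is called counts here; it summed to 38851231 in the control library and 43588721 in the CKO library. CKO counts were multiplied by 0.667, the median gene ratio, so a gene with 1.5 times as many CKO as control counts has a ratio of 1. Folds are ratios of scaled counts with a 95% Clopper-Pearson interval that covers counting error only. Log2 ratios carry a pseudocount of 1 and so fall slightly below the fold for sparse genes. With 1 library per group there was no replicate check and no test between groups.

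Of the 30 genes, 29 reached 10 scaled counts in 1 library, and the sialic acid receptor Siglec15 did not. Among the 29, 18 were 2-fold or more above control in the library labelled CKO, against 13.4% of the 17469 genes that passed the same filter. At least 2-fold lower were 2, the NK-receptor ligand Clec2h and the secreted protein Clec3b, against 5.35% of all genes tested. The remaining 9 lay between. At 4-fold, 12 were higher, against 4.29% of all genes. The median log2 ratio was 1.74 for the 29 members and 0.02 for all genes tested.

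All 4 families had a median above that of all genes. The median log2 ratio was 1.64 for Clec, 1.90 for Siglec, 1.95 for Fcgr and 2.62 for the only Fcer gene, Fcer1g, and each stayed above 0 under every scaling tried. The 20 Clec genes spanned −1.46 to 5.02, and the smaller families included Fcgr2b and Fcgrt near 0 and Siglec1 at 5.46. Ranked by log2 ratio, 5 members were among the top 100 of all genes tested. Siglec1 ranked 8, Clec12a 11, Clec7a 30, Clec4n 36 and Fcgr1 90. Of the Clec genes, 5 passed the filter only through the CKO library (Clec5a, Clec4n, Clec1b, Clec2i and Clec12a), so they had to be higher there. With at least 10 scaled counts asked of each library, a filter chosen after seeing the data, 14 of 24 members were at least 2-fold higher, against 10.7% of all genes, and the Clec median was 0.61, while those of Siglec, Fcgr and Fcer stayed at 1.90, 1.95 and 2.62.

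Sparse genes of all kinds were more often higher in the CKO library, so the members are also set beside genes of their own level. Between 10 and 30 mean counts, 2 of 4 members and 26.5% of all genes were at least 2-fold higher. Between 30 and 100, it was 6 of 7 members and 28.6% of genes, and between 100 and 300 it was 9 of 11 members and 20.0% of genes. From 300 to 1000, 1 of 3 members and 8.14% of genes were that much higher. Above 1000 mean counts none of the 4 members (Clec2d, Clec16a, Fcgr2b and Fcgrt) was, and 2.83% of genes were. Lower calls were also commoner among sparse genes. From the lowest level to the highest, 9.08%, 6.50%, 3.84%, 2.22% and 5.01% of all genes were at least 2-fold lower.

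**Figure D1:**
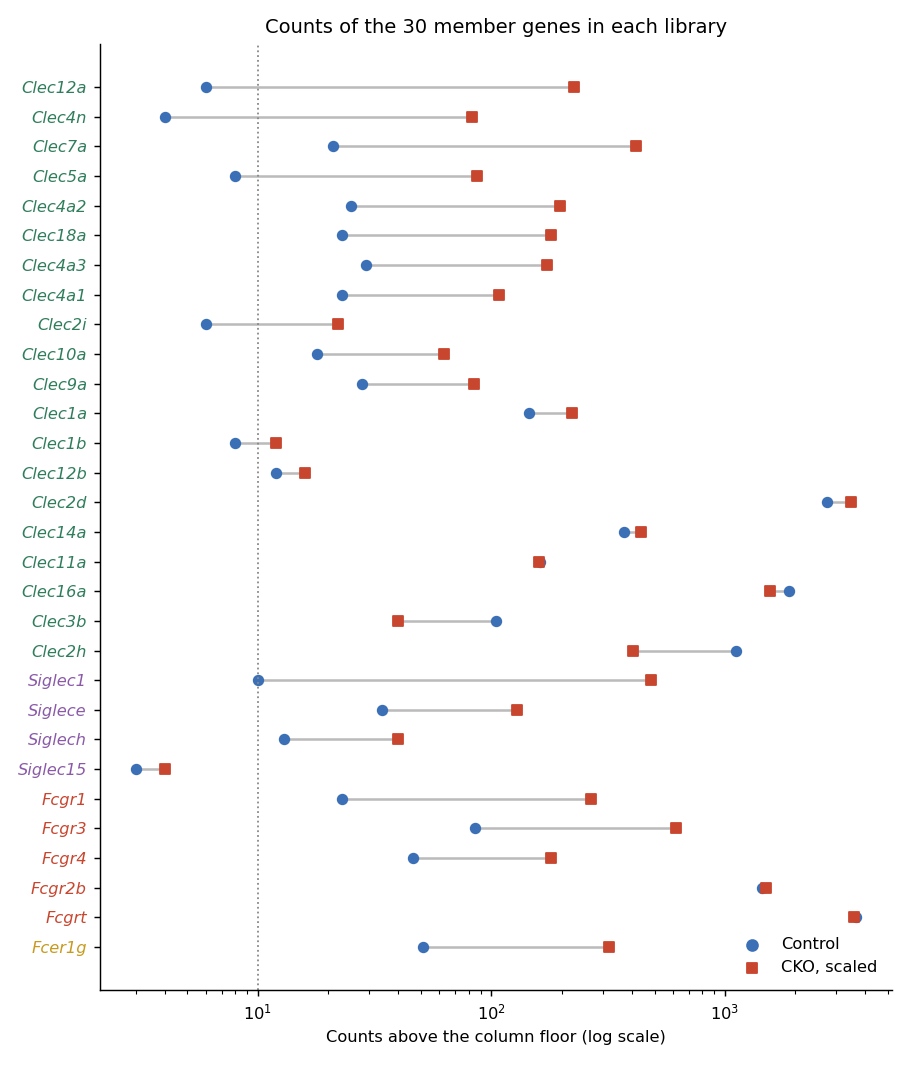
Counts above the column floor of the 30 members on a log axis, with a blue circle for the control library and a red square for the CKO library after scaling; gene names are coloured by family and the dotted line marks 10 counts. Siglec1 goes from 10 to 483, while Fcgrt sits at 3658 and 3561, a small difference whose sign changes when libraries are scaled to equal totals.

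Many members differed in the same direction, so the sequence upstream of their starts is shown for a few. RefSeq promoters (GRCm38.p6, 250 bases before to 50 after the start) were matched for 24 of the 30 genes. The letters GAGGAA, a core recognised by the myeloid factor PU.1, were searched on both strands. They occurred in 15 of the 24 genes, and in 31.3% of the 27025 genes with a RefSeq promoter, which are called all genes in this paragraph. Of the 12932 tested genes with a promoter, 30.8% held them. Of the 15 matched genes that were at least 2-fold higher, 11 held it, and of the 9 others 4 did. TTCNNNGAA, the letters of an interferon-γ activated element, occurred in 3 of the 24 genes (Fcgr1, Clec4a2 and Siglech) against 9.55% of all genes. GAAANNGAA, the core of an interferon-stimulated response element, occurred in 5 (Fcgr4, Clec2h, Clec2d, Clec12b and Clec9a) against 9.76%. TGANTCA, the AP-1 letters, occurred in 4 against 8.97%, and TTGCGCAA, a C/EBP palindrome, in 1 (Clec12a) against 0.207%. The longer PU.1 form GAGGAAGT, which contains GAGGAA, occurred in Fcgr4 against 3.69% of all genes. A match describes letters and is not evidence of binding.

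The 250 bases before the start are printed 5′ to 3′ for the C-type lectins Clec12a (chr6:129349994-129350243, plus strand) and Clec7a (chr6:129472780-129473029, minus strand), and for the IgG receptors Fcgr1 (chr3:96293970-96294219, minus strand), Fcgr4 (chr1:171018676-171018925, plus strand) and Fcgr2b (chr1:170976072-170976321, minus strand). They were picked after their values were seen, as members far above 2-fold and, in Fcgr2b, a neighbour that was not. The printed set leaves out members that went the other way over the searched promoters. Fcer1g, Clec4a2, Clec2i and Clec9a were at least 2-fold higher and had no GAGGAA match. Clec2h, Clec11a, Clec14a and Clec16a were not at least 2-fold higher and had a match. Capitals mark GAGGAA or its reverse complement, and Fcgr2b has neither in this window.
Clec12a: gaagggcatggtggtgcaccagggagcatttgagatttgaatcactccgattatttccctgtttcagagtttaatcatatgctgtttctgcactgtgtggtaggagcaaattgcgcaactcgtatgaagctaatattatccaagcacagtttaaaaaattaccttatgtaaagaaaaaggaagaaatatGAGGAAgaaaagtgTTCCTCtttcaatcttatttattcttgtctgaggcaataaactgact
Clec7a: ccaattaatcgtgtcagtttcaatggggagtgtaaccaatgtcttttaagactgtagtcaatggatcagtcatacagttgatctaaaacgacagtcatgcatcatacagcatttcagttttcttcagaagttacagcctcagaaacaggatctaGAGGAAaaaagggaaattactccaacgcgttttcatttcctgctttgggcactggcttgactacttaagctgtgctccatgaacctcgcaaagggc
Fcgr1: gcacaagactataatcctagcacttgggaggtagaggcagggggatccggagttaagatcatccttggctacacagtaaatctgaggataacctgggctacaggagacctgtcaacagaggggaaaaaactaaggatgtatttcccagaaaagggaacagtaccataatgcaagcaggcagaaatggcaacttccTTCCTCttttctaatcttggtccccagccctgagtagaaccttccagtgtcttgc
Fcgr4: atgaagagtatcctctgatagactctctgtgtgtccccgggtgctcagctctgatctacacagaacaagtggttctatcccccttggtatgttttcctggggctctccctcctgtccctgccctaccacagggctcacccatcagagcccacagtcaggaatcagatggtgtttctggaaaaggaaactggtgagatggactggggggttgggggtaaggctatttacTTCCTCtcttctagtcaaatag
Fcgr2b: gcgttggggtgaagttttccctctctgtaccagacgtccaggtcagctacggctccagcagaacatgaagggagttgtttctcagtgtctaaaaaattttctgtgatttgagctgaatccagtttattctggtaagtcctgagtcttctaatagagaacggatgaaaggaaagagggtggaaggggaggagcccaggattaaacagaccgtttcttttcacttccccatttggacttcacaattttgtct

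The activating IgG receptors were higher in the CKO library, and the inhibitory receptor Fcgr2b was within 2-fold. Fcgr1, the high-affinity receptor CD64 that binds monomeric IgG, had 23 counts in the control library and 401 in the CKO library, which is 11.6-fold higher after scaling (interval 7.64 to 18.5). Fcgr3, a low-affinity activating receptor for immune complexes, had 85 and 926, or 7.26-fold (5.81 to 9.18). Fcgr4, the mouse receptor for IgG2 subclasses, had 46 and 271, or 3.93-fold (2.86 to 5.49). All of them depend on FcRγ, the chain encoded by Fcer1g, which had 51 and 477 counts, or 6.24-fold (4.66 to 8.50). These 4 genes lay above 2-fold, with intervals that stayed above it.

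Fcgr2b, the only inhibitory IgG receptor in mice and a gene also used by B cells and some endothelium, was abundant in both libraries. It had 1440 counts in the control library and 2242 in the CKO library, a ratio of 1.04 (0.971 to 1.11). Its log2 ratio of 0.05 became 0.47 with libraries scaled to equal totals. As RPKM, here counts per kilobase of exon and per 1000000 counts of the library, Fcgr2b stood at 6.40 in the control library, above the summed level of Fcgr1, Fcgr3 and Fcgr4 at 2.43. In the CKO library the order was the opposite, with Fcgr2b at 8.88 and the activating receptors at 20.7. The quotient of activating to inhibitory level was 0.380 in the control library and 2.33 in the CKO library. Outside the IgG receptors, the inhibitory members Clec12a, Clec4a2 and Siglece were at least 2-fold higher and Clec12b was not. In the quotient Fcgr2b alone stands for inhibition, so sign of signal and cell of origin cannot be told apart.

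That quotient is taken inside a library and needs no scaling between libraries, though it depends on the floor. As a share of counts, the activating genes made up 154 of 1594 in the control library, or 9.66% (8.25% to 11.2%), and 1598 of 3840 in the CKO library, or 41.6% (40.0% to 43.2%). Without subtracting the floor the shares were 14.8% and 43.3%. Within the activating receptors, Fcgr3 kept the largest share, 55.2% (47.0% to 63.2%) and 57.9% (55.5% to 60.4%). Fcgr1 took 14.9% (9.71% to 21.6%) in the control library and 25.1% (23.0% to 27.3%) in the CKO library, or 22.3% and 25.8% without subtracting the floor. Fcgr4 took 29.9% (22.8% to 37.8%) and 17% (15.1% to 18.9%). Fcgr2b, Fcgr3 and Fcgr4 are related in sequence, and how reads that match several of them were assigned is not given in the sources used here, so their split is less certain than their sum.

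Fcgrt, the heavy chain of the neonatal Fc receptor, stood apart from the leukocyte receptors. It had 3658 counts in the control library and 5341 in the CKO library, a ratio of 0.973 (0.933 to 1.02), and its log2 ratio of −0.04 became 0.38 with equal library totals. At an RPKM of 44.8 and 58.3, it was the most abundant Fc receptor among the members. Its obligate partner B2m, which also pairs with MHC class I, had 6418 and 28598 counts, or 2.97-fold (2.89 to 3.05).

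**Figure D2:**
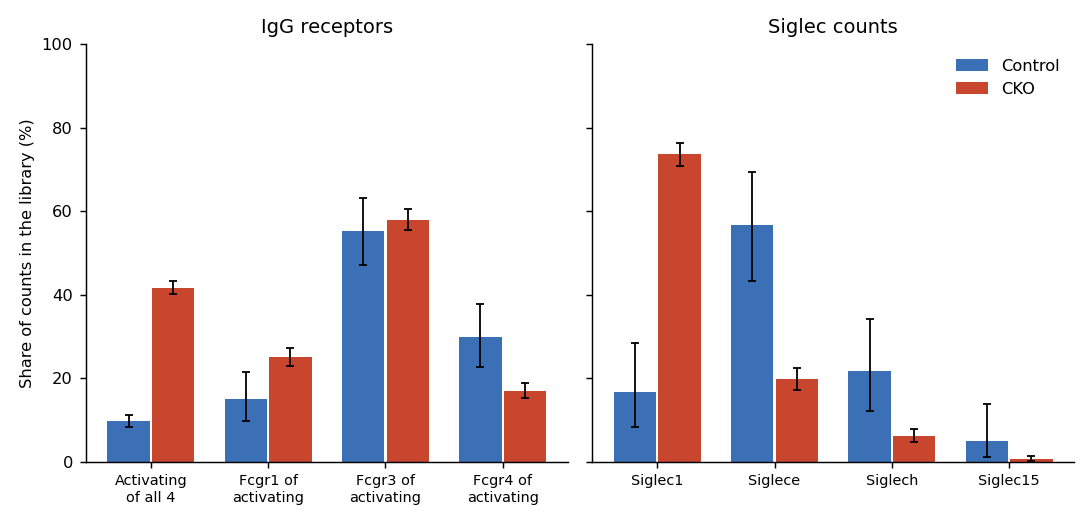
Share of counts inside each library, in percent, with bars for the control library (blue) and the CKO library (red) and error bars for the 95% Clopper-Pearson interval. The left panel gives Fcgr1, Fcgr3 and Fcgr4 together as a share of all 4 IgG receptors (9.66% and 41.6%) and each as a share of the 3 activating genes; the right panel gives each Siglec as a share of all Siglec counts.

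Among the Siglecs, Siglec1 had the most different share. Siglec1 encodes sialoadhesin (CD169), a macrophage receptor without an ITIM that binds sialylated cells and particles and is inducible by type I interferon. It had 10 counts in the control library and 725 in the CKO library, 48.3-fold higher (26.1 to 101), the largest ratio of the 30 genes. Its share of Siglec counts was 16.7% (8.29% to 28.5%) in the control library and 73.6% (70.7% to 76.3%) in the CKO library, or 22.4% and 65.4% without subtracting the floor.

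Siglece, an ITIM-bearing receptor of myeloid cells, had 34 and 194 counts, or 3.80-fold (2.63 to 5.65). Siglech, a DAP12-coupled receptor typical of plasmacytoid dendritic cells and also present on microglia, had 13 and 60, or 3.08-fold (1.67 to 6.11). Siglec15, a DAP12-coupled receptor of osteoclasts, had 3 and 6, a ratio of 1.33 with an interval of 0.285 to 8.24, and no difference was detectable at that depth. Siglece thus went from 56.7% (43.2% to 69.4%) to 19.7% (17.3% to 22.3%) of the family's counts although its own level was higher; without subtracting the floor the shares were 34.7% and 20.6%. Outside the Siglec prefix, the myeloid Siglec Cd33 had 31 and 246 counts, or 5.29-fold (3.63 to 7.96), and Mag, the Siglec of myelin, had 10 and 25, or 1.67-fold (0.773 to 3.89). Cd22 was not analysed here.

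The activating C-type lectins were sparse in the control kidney library. Clec7a, which encodes the β-glucan receptor Dectin-1 with an ITAM-like motif of its own, had 21 counts in the control library and 622 in the CKO library, or 19.7-fold (12.8 to 32.1). Clec4n, which encodes the FcRγ-coupled mannan receptor Dectin-2, had 4 and 124, or 20.7-fold (7.87 to 77.0). Clec5a, a DAP12-coupled receptor of monocytes and macrophages, had 8 and 130, or 10.8-fold (5.34 to 25.6). Clec4n and Clec5a were near the floor in the control library, where the size of the ratio depends on the processing. Clec4n had a log2 ratio of 4.06, which was 2.73 with a pseudocount of 10 and 2.17 in the values as deposited. For Clec12a, an inhibitory lectin, 5.02 became 3.88 and 3.25, and for Siglec1 5.46 became 4.62 and 4.11. For Clec7a, 4.24 became 3.78 and 3.59. Clec9a, the receptor by which cross-presenting dendritic cells bind actin exposed on dead cells, had 28 and 127, or 3.02-fold (2.0 to 4.73). Clec1b, the podoplanin receptor of platelets, had 8 and 18, or 1.5-fold (0.621 to 3.99), which was not a detectable difference at that depth.

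Of the 3 inhibitory lectins, Clec12a and Clec4a2 were past 2-fold. Clec12a, an ITIM-bearing receptor of myeloid cells that senses uric acid crystals and restrains Syk signalling, had 6 counts in the control library and 338 in the CKO library, or 37.6-fold (17.1 to 103). Clec4a2, which encodes the inhibitory receptor DCIR, had 25 and 296, or 7.89-fold (5.24 to 12.4). Clec12b, another ITIM-bearing lectin, had 12 and 24, or 1.33-fold (0.641 to 2.93), which was likewise not a detectable difference. Over the lists by sign of signal, 9 of the 10 activating members that passed the filter and 3 of the 5 inhibitory members were at least 2-fold higher, against 13.4% of all genes tested, with median log2 ratios of 2.73 and 1.90. Clec4n, Clec5a and Clec1b on the activating list and Clec12a on the inhibitory list passed only through the CKO library. Summed, the activating list had 290 and 3162 counts. The inhibitory list had 1517 and 3094, of which Fcgr2b gave most.

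Among relatives without a listed sign of signal, Clec4a3 had 29 and 260 counts, or 5.98-fold (4.06 to 9.10), and Clec4a1 had 23 and 162, or 4.70-fold (3.02 to 7.62). Both belong to the DCIR group, and their sequence likeness makes the split of reads among Clec4a genes uncertain. Clec10a, a galactose-type lectin of macrophages and dendritic cells, had 18 and 94, or 3.48-fold (2.09 to 6.13). Taken as a group, the 11 leukocyte lectins (Clec7a, Clec4n, Clec5a, Clec9a, Clec1b, Clec12a, Clec12b, Clec4a1, Clec4a2, Clec4a3 and Clec10a) had 182 counts in the control library and 2195 in the CKO library. They made up 2.71% (2.34% to 3.13%) of all Clec counts in the control library and 18.4% (17.7% to 19.1%) in the CKO library. The control share depends on the floor, as without subtracting it the shares were 7.52% and 21.2%. Clec7a alone went from 11.5% (7.29% to 17.1%) to 28.3% (26.5% to 30.3%) of the counts of that group. Clec4d, Clec4e and Fcer1a were not analysed here.

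**Figure D3:**
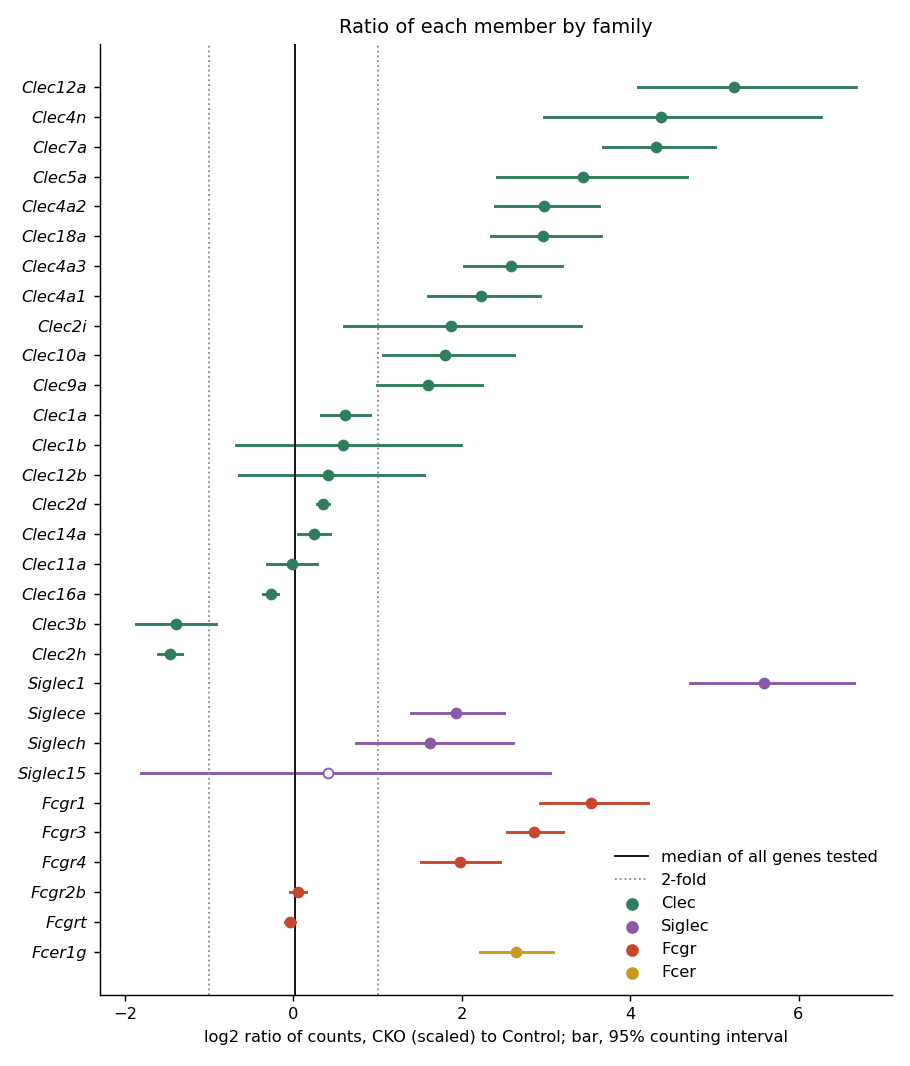
Log2 ratio of counts, CKO after scaling to control, for each member, coloured by family, with bars for the 95% counting interval, a solid line at the median of all genes tested and dotted lines at 2-fold. Leukocyte receptors fill the right side, and Clec11a, Clec16a and Fcgrt, left of 0 here, move to its right when libraries are scaled to equal totals; the open circle is Siglec15, which did not pass the filter.

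The Clec2 genes encode ligands of the NKR-P1 lectin receptors on NK cells and did not move as a group. Clec2d, the ligand of the inhibitory receptor NKR-P1B, was the most abundant member per length, with an RPKM of 57.9 in the control library and 98.8 in the CKO library. It had 2730 and 5225 counts, or 1.28-fold (1.22 to 1.34). Clec2h had 1113 and 606 counts, which is 2.76-fold lower in the CKO library (2.49 to 3.05). Its log2 ratio of −1.46 was the lowest of the members and kept its sign under every scaling, at −1.04 with equal library totals and −0.81 in the values as deposited. Clec2i had 6 and 33 counts, or 3.67-fold higher (1.52 to 10.7). Its log2 ratio of 1.72 was 1 with a pseudocount of 10 and 1.03 in the values as deposited. As shares of Clec counts, Clec2h went from 16.6% (15.7% to 17.5%) to 5.07% (4.69% to 5.48%), whereas Clec2d went from 40.7% (39.5% to 41.9%) to 43.7% (42.8% to 44.6%).

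The stromal, vascular and secreted lectins were mostly within 2-fold. Clec14a, an endothelial adhesion protein, had 369 and 655 counts, or 1.18-fold (1.04 to 1.35). Clec1a, an endothelial and myeloid receptor for fungal melanin, had 145 and 333, or 1.53-fold (1.26 to 1.87), and its log2 ratio of 0.61 was 1.03 with equal library totals, past 2-fold. Clec11a, a secreted growth factor for bone and blood progenitors, had 161 and 239, a ratio of 0.990 (0.807 to 1.22), and its log2 ratio of −0.01 was 0.40 with equal library totals. Clec14a and Clec11a lay closer than Clec1a to the median of all genes. Clec3b, which encodes the plasminogen-binding protein tetranectin, had 105 and 60 counts, 2.63-fold lower in the CKO library (1.89 to 3.67). Its log2 ratio of −1.37 was −0.96 with equal library totals and −0.33 in the values as deposited, both short of 2-fold. Clec18a, a lectin with a CAP domain, was the exception on the high side, with 23 and 270 counts, or 7.83-fold (5.11 to 12.6).

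Clec16a is a lectin in name only and acts in endosomal traffic and mitophagy. It had 1877 counts in the control library and 2332 in the CKO library, a ratio of 0.828 (0.779 to 0.881), and its log2 ratio of −0.27 turned to 0.15 with equal library totals. Across the 9 Clec genes outside the leukocyte group, 2 lay above 2-fold (Clec18a and Clec2i, the latter passing only through the CKO library) and 2 below it in the other direction, beside 13.4% and 5.35% of all genes. The lower calls were 1 with equal library totals and 0 in the values as deposited, beside 2.47% and 0.655% of all genes. Clec1a was then also past 2-fold higher, at 1.03 and 1.09, where 21.9% and 17.9% of all genes were. The median log2 ratio of the 9 was 0.24. Their summed scaled counts were nearly equal, 6529 in the control library and 6502 in the CKO library.

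Position was compared because many members lie side by side. On chromosome 6 (GRCm38), the Dectin-2 cluster from 122921848 to 123247024 holds Clec4a1, Clec4a3, Clec4a2 and Clec4n, and all 4 were at least 2-fold higher, with log2 ratios of 2.18 to 4.06, where 13.4% of all genes tested were that much higher. The Dectin-1 cluster lies further along the same chromosome, from 129349783 to 129472785. Its 6 members ranged from 0.39 (Clec12b) to 5.02 (Clec12a), and 3 were at least 2-fold higher. Clec4n in the former cluster, and Clec12a and Clec1b in the latter, passed the filter only through the CKO library. Clec1a, 9.59 kb from Clec7a, had a log2 ratio of 0.61 beside 4.24. Clec2h, Clec2i and Clec2d, between 128662385 and 129186535, spanned −1.46 to 1.72. On chromosome 1, Fcgr2b, Fcgr4, Fcgr3 and Fcer1g lie within 274 kb (170960558 to 171234349), and Fcgr2b at 0.05 was 42.9 kb from Fcgr4 at 1.95. Fcgr3 at 2.85 and Fcer1g at 2.62 were closer to Fcgr4 in ratio. The annotated span of Clec12b overlaps Clec1b and Clec9a on the opposite strand and reaches the edge of Clec1a. The library kit was stranded, but whether counting used strand is not given in the sources used here, so it is unknown whether reads of these genes were kept apart.

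**Figure D4:**
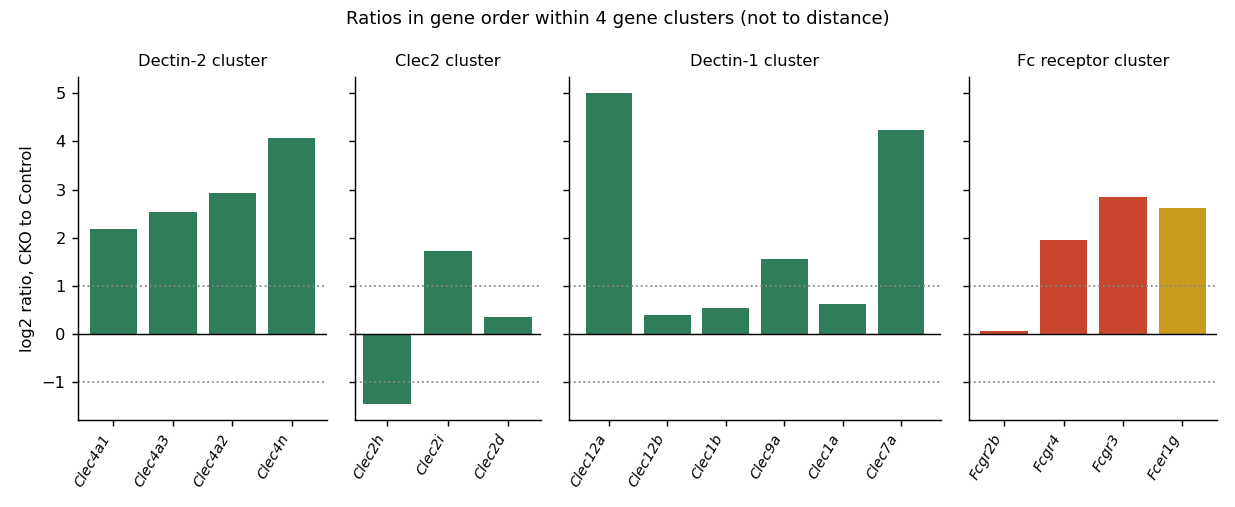
Log2 ratio, CKO to control, of members in their order along 4 gene clusters, spaced evenly and not by distance; dotted lines mark 2-fold and colours mark family. In the Dectin-1 cluster the end genes Clec12a and Clec7a reach 5.02 and 4.24 while of the genes between them Clec9a is at 1.56 and Clec12b, Clec1b and Clec1a are under 1, Clec1a reaching 1.03 with equal library totals; Clec2h keeps its negative sign under every scaling.

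The signalling genes behind these receptors were read from a list of 18, all of which passed the filter. At least 2-fold higher were 10, none was at least 2-fold lower, and the median log2 ratio was 1.16 against 0.02 for all genes tested, of which 13.4% were at least 2-fold higher. Hcst, 1 of the 10 at 8 and 29 counts, passed only through the CKO library, which fixes its direction. Tyrobp, which encodes DAP12, had 123 and 1307 counts, or 7.08-fold (5.88 to 8.59), the highest of the list. Syk, the kinase that docks on the phosphorylated ITAM, had 53 and 407, or 5.12-fold (3.84 to 6.95). The lowest was Malt1, a protease of the CARD9 and BCL10 complex, with 1012 and 1234 and a log2 ratio of −0.30, which was above 0 with equal library totals as all 18 genes then were. The phosphatases of the inhibitory arm lay at or below the median of the list. Ptpn6, which encodes SHP-1, had 903 and 1496 counts, or 1.10-fold (1.02 to 1.20), and Ptpn11, which encodes SHP-2 and was the most abundant of the list per length in the control library, had 4256 and 6046, or 0.947-fold (0.910 to 0.985). Inpp5d, which encodes SHIP-1, had 196 and 651, or 2.21-fold (1.88 to 2.61). Syk, Ptpn6 and Inpp5d are named for their role and were picked after their values were seen.

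Genes with a C-type lectin domain but another name were compared in the same way. Of 24 in the table, 22 passed the filter, 13 were at least 2-fold higher and none lower by that much, against 13.4% and 5.35% of all genes tested, with a median log2 ratio of 1.36. Of the 13, Asgr2, Mbl2, Selp and Klrb1f had under 10 control counts and passed only through the CKO library, which fixes their direction. Selp, the P-selectin gene of platelets and activated endothelium, was the highest at 2 and 36 counts, or 12.0-fold (3.09 to 103). Its 2 control counts lie near the floor, and its rank depends on the floor having been subtracted. Mbl1, a mannose-binding lectin of plasma, was the lowest at 149 and 129 counts, with a log2 ratio of −0.79. Cd302, an endocytic lectin, was the most abundant per length in both libraries and had a log2 ratio of 0.10. Among killer-cell lectin-like receptor (Klr) genes on this list, which were picked after their values were seen and of which Klra2 is known from myeloid cells, Klrk1 (NKG2D) had 11 and 81 counts, or 4.91-fold (2.60 to 10.2). Klrb1f had 3 and 34, a ratio of 7.56 (2.38 to 38.4), and Klra2 had 12 and 56, or 3.11-fold (1.65 to 6.38). Klrb1c, at 5 and 10, did not pass the filter.

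Sialic acid genes make, modify or cleave the sugar that Siglecs bind. Of the 27 in the table, 3 were 2-fold or more higher and 2 as much lower, close to the shares of 13.4% and 5.35% over all genes, and their median log2 ratio was −0.0032, beside 0.02 for all genes tested. The highest was St8sia4, a polysialyltransferase, with 70 and 329 counts, or 3.13-fold (2.41 to 4.12). The lowest was Cmah, the hydroxylase that turns Neu5Ac into the Neu5Gc preferred by several mouse Siglecs, with 2647 and 1646 counts, which is a ratio of 0.415 (0.390 to 0.441). Neu1, the lysosomal sialidase, was the most abundant per length in both libraries, with 17419 and 14068 counts and a log2 ratio of −0.89. With equal library totals 6 were higher and 0 lower by that rule, beside 21.9% and 2.47% of all genes tested under that scaling, and the median of the list was 0.42, beside 0.44 for all genes.

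Fc receptors outside the prefixes and their ligands were read last. Of the 4 such receptor genes that passed the filter, B2m, given above, was the highest and the most abundant. Fcamr, a receptor for IgA and IgM, was the lowest, with 3504 and 1068 counts, a ratio of 0.203 (0.190 to 0.218). Fcmr, the IgM receptor of lymphocytes, had 8 and 4 counts and did not pass. Immunoglobulin genes themselves were sparse, as 4 were in the table with 153 counts in the control library and 678 in the CKO library. Igha had the highest ratio, with 10 and 52 counts, Jchain the lowest, with 15 and 43, and Ighm was the most abundant per length, with 110 and 530. The log2 ratios of Igha and Ighm were 1.70 and 1.67, and their order depends on the floor having been subtracted.

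Macrophage and monocyte markers were mostly higher in the CKO library. For each marker list, the shares to set its counts against are those of all genes tested, 13.4% for the CKO library higher by 2-fold or more and 5.35% for the reverse. Of 12 macrophage and monocyte markers in the table, 9 were at least 2-fold higher and none lower to that extent. The list's median log2 ratio was 2.61 and its summed counts were 5737 in the control library and 30123 in the CKO library. Lyz2, the macrophage lysozyme, was the most abundant per length in both libraries and the highest, with 518 and 9836 counts, or 12.7-fold (11.6 to 13.9). Mertk, an efferocytosis receptor, was the lowest, with 1597 and 1921 and a log2 ratio of −0.32, which was above 0 with equal library totals. Cd163, Vsig4, Marco and Timd4 were not analysed here. The leukocyte receptors lay on both sides of the marker median. Above it were Fcgr1 at 3.48, Clec4n at 4.06, Clec7a at 4.24, Clec12a at 5.02 and Siglec1 at 5.46, among others. Their order against single markers depends on the processing, as in the values as deposited Siglec1 was at 4.11 and Lyz2 at 4.16. Below the median were Clec4a1 at 2.18, Fcgr4 at 1.95, Siglece at 1.90, Clec10a at 1.74, Clec9a at 1.56, Siglech at 1.55 and Fcgr2b at 0.05, among others. More cells of a type and more RNA per cell cannot be told apart in bulk kidney, and the part of macrophage number in the receptor values was not tested.

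Other leukocyte markers were much sparser. Dendritic cell markers were at least 2-fold higher in 6 of 7, with a median log2 ratio of 2.04 and summed counts of 470 and 1609; of the 6, Ccr7, Flt3 and Xcr1 passed the filter only through the CKO library, which fixes their direction. Itgax, the CD11c gene, was their highest at 56 and 507 and the most abundant per length in the CKO library, and Zbtb46 their lowest at 345 and 660. Of the neutrophil list 3 of 10 genes were in the table, summing to 42 and 260 counts, and 2 of them were at least 2-fold higher. Csf3r was highest at 22 and 177, S100a8 lowest at 7 and 19, and S100a9, the most abundant per length, had 13 and 64; Ly6g, Mpo and Elane were not analysed here. The eosinophil list had 2 genes, Ear2 at 4 and 154 counts and Il5ra at 91 and 102, which sum to 95 and 256. Ear2 passed only through the CKO library and is also used by macrophages, and Epx and Prg2 were not analysed here.

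Few markers were in the table for the cells known to carry Siglech, Clec1b or the NKR-P1 receptors, or for B cells, which also carry Fcgr2b. The difference of these markers from the macrophage list was not tested. Fcgr2b is also used by some endothelium, whose markers are given below. Plasmacytoid dendritic cell markers summed to 44557 and 41066 counts, nearly all from Klk1, a kallikrein that kidney tubules make. The remaining genes lay between Ccr9 (6 and 25 counts) and Cox6a2 (33 and 23). Of the 4, Ccr9, which passed only through the CKO library, was at least 2-fold higher and Cox6a2 lower. With equal library totals 2 were higher and 0 lower by that rule, beside 21.9% and 2.47% of all genes. In the values as deposited it was 0 and 0, beside 17.9% and 0.655%. NK cell markers summed to 50 and 87 counts, and 2 of 4 were at least 2-fold higher. In the values as deposited it was 0 of 4, beside 17.9% of all genes. Nkg7, which passed only through the CKO library, was highest at 7 and 24, and Ncr1 had 15 and 16. Gzma, lowest and the most abundant per length in the control library, had 18 and 14. Platelet markers summed to 193 and 221, with Pf4 at 15 and 40 and Itga2b at 165 and 165; Gp1bb and Ppbp did not pass the filter. Of the B cell list only Cd79b was in the table, with 23 and 40 counts, and of the mast cell list only Kit, which kidney cells also express, with 325 and 732.

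Kidney cell markers were within 2-fold in most cases. The 8 endothelial markers had a median log2 ratio of 0.01 and summed to 11890 and 16395 counts, between Kdr at −0.67 and Emcn at 0.14, with Tek the most abundant per length. Of the 8 proximal tubule markers, 2 were lower by 2-fold or more, and the list summed to 423576 and 347520 counts. The median log2 ratio was −0.76, or −0.35 with equal library totals. Slc22a6, the organic anion transporter OAT1, was the lowest at −1.63, the glucose-family transporter Slc5a12 the highest at 0.41, and Slc34a1 the most abundant. The 10 markers of other nephron segments had a median of −0.15, which was 0.27 with equal totals, and summed to 149640 and 275180 counts; Aqp2, the collecting duct water channel, was highest at 0.79, Pvalb lowest at −1.17 and Umod the most abundant.

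**Figure D5:**
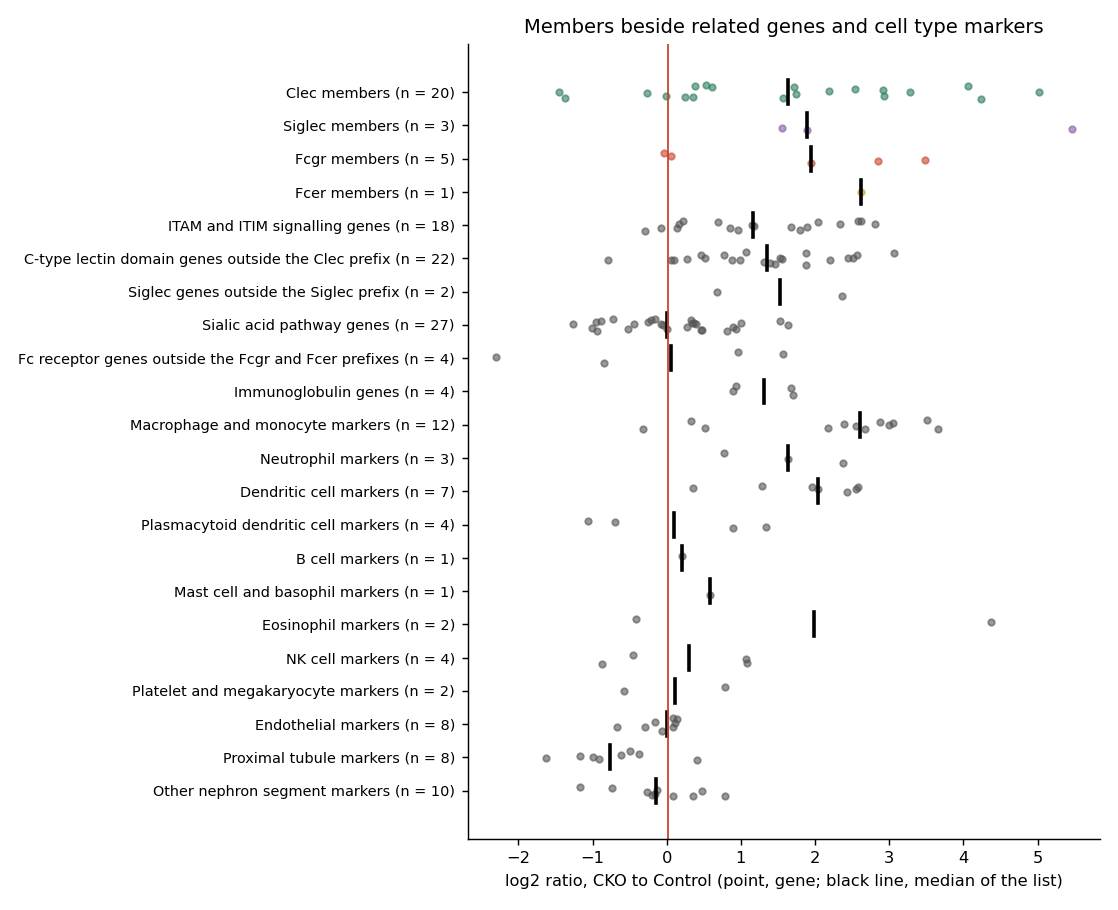
Log2 ratio, CKO to control, of genes that passed the filter, with a point per gene, a black line at the median of each list and a red line at the median of all genes tested. Macrophage and monocyte markers (median 2.61) and dendritic cell markers (2.04) lie beside the receptor families, endothelial (0.01) and sialic acid genes near the red line, and with equal library totals the scaling shifts every gene right by about 0.42 on the log2 scale.

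Depth limits the sparsest members. Among the 548 genes whose counts sum to between 4 and 6 over both libraries, the variance of the CKO share was 0.398 of that of binomial counting, and it was 0.837 for sums of 7 to 10. It was 1.39 for sums of 11 to 15 and 2.32 for sums of 16 to 25. Values with sums up to 10 therefore varied less than numbers of reads would, and those above varied more than counting error alone. The intervals treat what lies above the floor as reads with counting error alone, which these variances do not meet. Siglec15 lies in the range that varied less. Sums above 25 were not examined, and intervals of members with larger sums may be too narrow. The control values of Clec4n, Clec12a, Clec2i, Clec5a and Clec1b lie near the floor, and whether they are numbers of reads is unclear.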

How the data were processed

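Kidney poly(A) RNA was sequenced from 1 library per group. According to the submitters' processing notes and the study's methods, reads were aligned to mm10 (the GRCm38 build) with STAR 2.7.3a, counted with HTSeq and normalized with DESeq2, with Cufflinks 2.2.1 for FPKM; the deposited table holds the authors' normalized counts rounded to whole numbers, recorded here as a score. Columns were matched to libraries by name and 0 sample columns were left unused. From each column its lowest value minus 1 was subtracted, CKO values were multiplied by the median gene ratio (0.667), and log2 ratios were taken with a pseudocount of 1 for genes with at least 10 scaled counts in 1 library. A ratio past 2-fold was counted; no test was possible. Exact Clopper-Pearson intervals (95%) took each unit above the floor as 1 read. Genes whose counts summed to between 4 and 25 over both libraries did not meet that assumption. The intervals came from scipy 1.17.1 in Python 3.11.15, with numpy 2.4.6 and pandas 2.3.3. Levels per kilobase used the union of exons in GENCODE M21, and positions (all 30 genes) and promoters (24 genes) came from RefSeq (GRCm38.p6), matched by gene number.

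Named genes are every Siglec, Fcgr and Fcer gene, every Clec gene that passed the filter, and of each gene list the highest, the lowest and the most abundant gene per length; others were named for their role. Members and lists were chosen with earlier results of these data known. The steps were tested on simulated data. Other pseudocounts, filters, scalings, floors and fold thresholds were tried.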

Additional observations from a re-analysis of the deposited data

How the results depend on the processing

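No paired analysis was possible because Control and CKO had 1 library each. The count of members at least 2-fold higher was between 14 and 19 over the settings. It was 14 with at least 10 scaled counts asked of each library, beside 10.7% of all genes. It was 19 with equal totals and as deposited, beside 21.9% and 17.9%. With the threshold itself moved, 12 were at least 4-fold higher and 0 as much lower, beside 4.29% and 0.950% of all genes. At 1.5-fold, 19 were higher and 2 lower, beside 21.8% and 13.9%. The Fcgr and Fcer medians were between 1.77 and 2.37 and between 2.43 and 3.03. Scaling to equal library totals moved the median of all genes from 0.02 to 0.44, and the values as deposited, with neither floor nor scaling, put it at 0.57; genes at least 2-fold higher and lower numbered 2334 and 934 in the main analysis, 3870 and 437 with equal totals, and 3574 and 131 as deposited. Members at least 2-fold lower numbered 2 in the main analysis, 1 with equal totals and 0 as deposited. The Siglec median was 3.68 with at least 50 scaled counts asked for, which leaves Siglec1 and Siglece, and the Clec median was 0.61 with at least 10 scaled counts in each library, an alternative chosen after seeing the data, which leaves out 5 sparse genes. Signs turned for 3 genes near a ratio of 1. With equal totals the log2 ratio was 0.40 for Clec11a, 0.15 for Clec16a and 0.38 for Fcgrt; as deposited it was 0.57, 0.32 and 0.55; with equal upper quartiles Clec11a was at 0.016. Of the other values for single members, 230 lay within the counting interval of the main value and 20 moved beyond it without a change of sign, 11 of them in the values as deposited.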
